A study of Mus musculus with 4 samples.

Results

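EF-hand proteins bind calcium through a helix-loop-helix fold, and neurons carry 2 broad kinds of them. The 10 genes described here encode 3 cytosolic buffers (Pvalb, Calb1, Calb2), 5 neuronal calcium sensors (Hpca, Hpcal1, Hpcal4, Ncald, Vsnl1) and 2 NECAB proteins (Necab1, Necab2). They were chosen by gene symbol, and each was read by exactly 1 row among the 21789 array rows that carried a single symbol, which stood for 19938 genes in all. RNA of ICR mice, labelled as prefrontal cortex, was read on 4 Mouse Gene ST arrays of Affymetrix, 2 per group. The titled ketamine arrays stand for mice injected intraperitoneally each day with 30 mg/kg ketamine, a blocker of NMDA-type glutamate receptors, and the titled saline arrays for mice injected with saline. By the methods, treatment began at the age of 1 month and lasted 3 months, and the mice of both groups had been tested in a water maze before they were killed. The source field of the labels assigns the treatments the other way round, so the groups are named by title here, and every direction would turn if that field were right. The sex is given as female in the labels and as male in the methods.

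Buffers such as parvalbumin and calbindin take up calcium after it enters a neuron and so shape the size and duration of the signal. Sensors such as hippocalcin carry a fatty acid that is exposed when calcium binds, which sends the protein to the membrane, where it acts on channels, receptors and enzymes. Both kinds differ sharply between neuron types, and for that reason they are widely used to mark them. In cortex parvalbumin and calretinin mark separate classes of inhibitory neurons, whereas in the cerebellum Purkinje cells are rich in parvalbumin and calbindin and granule cells in calretinin.

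The labelled tissue did not match its defining markers on the titled ketamine arrays. Of 10 measured markers of cortical projection neurons, 8 were lower there and 2 did not pass, with summed levels (log2 of the summed unlogged values) of 10.98 to 11.18 on the titled ketamine arrays and 12.61 to 12.63 on those titled saline. Tbr1 and Neurod6, both transcription factors of these cells, lay on both titled ketamine arrays at or under the 95th percentile of 1035 olfactory receptor rows (4.46 to 4.56 on these arrays), which stand for genes with no known brain expression. Markers of cerebellar granule cells were higher for 10 of 10, with summed levels of 13.67 to 13.77 on the titled ketamine arrays and 9.72 to 10.15 on those titled saline, and markers of Purkinje cells for 8 of 8, with 12.38 to 12.62 and 9.14 to 9.60. Markers of cortical interneurons were lower for 9 of 9 and of striatal neurons for 7 of 7, microglial markers for 4 of 4, and of 5 astrocyte markers 1 was higher and 1 lower, while 0 of 4 oligodendrocyte markers passed (all tests by limma, adjusted p under 0.05). Treatment and dissected tissue cannot be told apart on these 4 arrays. In bulk tissue, neither can fewer cells of a type and less RNA per cell.

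On the titled ketamine arrays 4 of the 10 genes were higher, 5 were lower and 1 did not pass. The 3 buffers and the sensor Hpcal1 were higher, 3 other sensors and both NECAB genes were lower, and Vsnl1 was the gene without a call. Over all tested rows limma called 33.2%, 23.4% higher and 9.71% lower. All 10 genes lay among the 10895 rows at or above the median level. In a fit of those rows alone 5341 were called, so shares over all rows include dimmer rows than those of the 10 genes. After quantile normalization the calls over all rows split into 2923 higher and 4049 lower, against 5109 higher and 2115 lower in the values as deposited, and the calls of the 10 genes were the same in both. Each difference is given on the log2 scale, and the median difference over all tested rows was 0.13, so a change relative to the other genes is smaller by that amount for a gene that was higher and larger for one that was lower. The median size of the difference was 1.79 for the 10 genes and 0.26 for all tested rows. All 10 genes, Vsnl1 included, had groups that did not overlap, which was also so for 69.9% of all rows. Past 1.3-fold were 9 of the 10 genes, against 34.1% of all rows, and the same 9 were past 2-fold, against 6.67%. With 2 arrays against 2, an exact permutation test cannot give a two-sided p below 0.333, and the p-values given reflect the scatter of these 4 arrays alone.

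**Figure D1:**
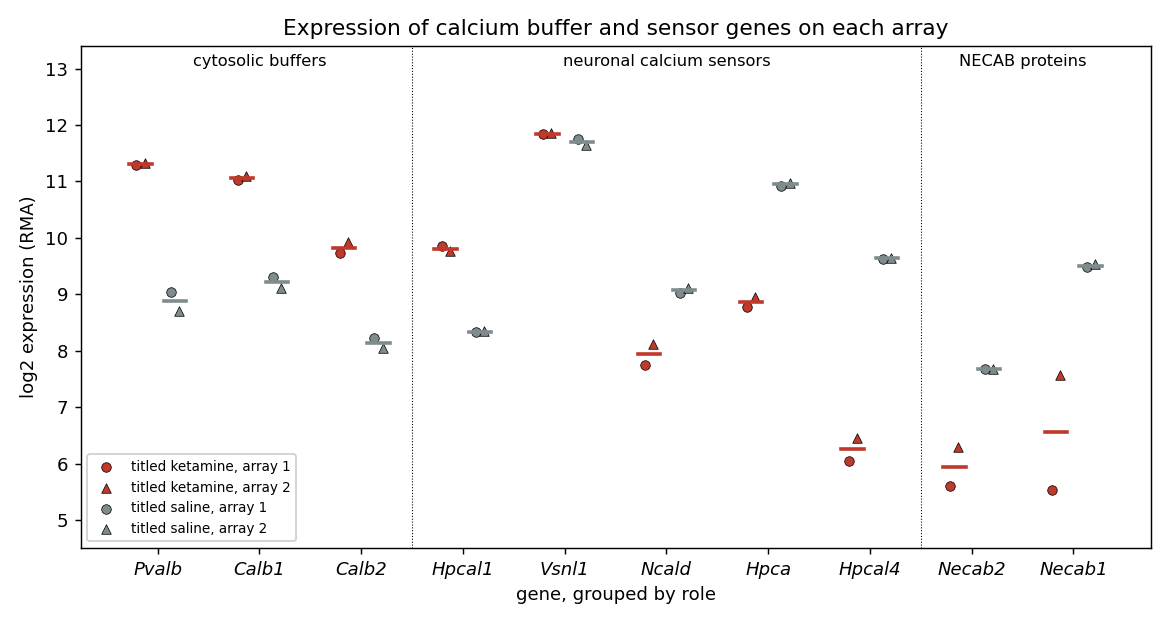
Log2 expression (RMA, y axis) of the 10 genes (x axis, grouped by role) on each array, red for the titled ketamine arrays and grey for those titled saline. Circles are array 1, triangles array 2 and bars group means. The 3 buffers lie higher on the titled ketamine arrays, Vsnl1 lies between 11.65 and 11.86 on all 4 arrays, and Necab1 reads 5.53 and 7.57 on the 2 titled ketamine arrays.

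All 3 cytosolic buffers were higher on the titled ketamine arrays. Pvalb encodes parvalbumin, a slow buffer of fast-spiking interneurons and of Purkinje cells. It read 11.30 and 11.33 on the titled ketamine arrays and 9.05 and 8.70 on the titled saline arrays, so the groups lay 2.25 apart at their nearest values. The log2 difference was 2.44 (95% interval 2.12 to 2.77, adjusted p = 5.2e-05 from limma), a ratio of 5.43 and the largest rise of the 10 genes. The 2 titled ketamine arrays were 0.03 apart for Pvalb and the 2 titled saline arrays 0.35 apart.

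Calb1 encodes calbindin, a fast buffer of Purkinje cells and of some cortical neurons. It read 11.02 and 11.09 on the titled ketamine arrays and 9.30 and 9.12 on those titled saline. Its difference of 1.84 (95% interval 1.57 to 2.12, adjusted p = 7.6e-05 from limma) is a ratio of 3.59. Calb2, the gene of calretinin, read 9.73 and 9.92 on the titled ketamine arrays, against 8.23 and 8.04 on the titled saline arrays. The difference of Calb2 was 1.69 (95% interval 1.39 to 1.98, adjusted p = 0.00014 from limma), a ratio of 3.22. All 3 buffers lay well above the olfactory receptor level on every array, including those where they were lower.

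Markers of cerebellar neurons and of cortical interneurons, groups that both include cells with these buffers, moved in opposite directions. The Purkinje cell markers Pcp2, Car8, a carbonic anhydrase-related protein, and Ppp1r17, a phosphatase inhibitor, were higher by 3.77, 4.30 and 5.56, and the granule cell markers Cbln3, Gabra6 and Neurod1 by 6.01, 6.62 and 4.48. On titled saline array 2, Gabra6 and Ppp1r17 were at or under the olfactory receptor level, so their differences have no settled size. Cbln3, at 4.52 on that array, lay just above this level of 4.43, so the size of its difference is uncertain too. Titled saline arrays 1 and 2 read 6.73 and 3.28 for Gabra6, 7.81 and 6.37 for Car8 and 5.75 and 4.52 for Cbln3. The median of array 2 minus array 1 in this group was -0.40 for the granule cell markers and -0.21 for the Purkinje cell markers. The cortical interneuron markers had summed levels of 9.19 to 9.55 on the titled ketamine arrays and 11.05 to 11.08 on those titled saline, with Sst, the gene of somatostatin, lower, with a difference of -2.57, Vip, a neuropeptide gene of calretinin-bearing interneurons, at -2.03 and Dlx1, an interneuron transcription factor, at -2.10. These 3 had the largest differences of the 9 cortical interneuron markers, whose median was -1.07, with a range from -2.57 to -0.58. Of these 9 markers, Htr3a was at or under the olfactory receptor level on both titled ketamine arrays and Vip on array 1 of them. The 3 genes that all GABAergic neurons use differed less, with summed levels of 11.37 to 11.52 on the titled ketamine arrays and 11.45 to 11.47 on those titled saline. Gad2, which makes GABA, was lower, with a difference of -0.51, while Gad1, with the same function, had a difference of 0.19 (adjusted p = 0.255 from limma) and Slc32a1, the vesicular GABA transporter, one of 0.15 (adjusted p = 0.311 from limma). Within the group titled saline, Pvalb, Calb1 and Calb2 all read lower on array 2 than on array 1, as did Vsnl1, 7 of the 8 Purkinje cell markers, 9 of the 10 granule cell markers, 8 of 9 calcium pumps and exchangers and 4 of 4 proteins that bind calmodulin. So did 5 of 7 other neuronal calcium sensors, 4 of 5 astrocyte markers, 4 of 7 striatal markers and 2 of 3 genes of all GABAergic neurons. In the remaining marker lists 4 of 9 cortical interneuron, 4 of 10 projection neuron, 2 of 4 microglial and 1 of 4 oligodendrocyte markers did. Of calmodulin and its relatives 4 of 10 did, and of other EF-hand buffers and S100 proteins 2 of 10. Over all rows 49.9% read higher on titled saline array 2. The part of these cell types in the differences of the buffers was not tested.

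**Figure D2:**
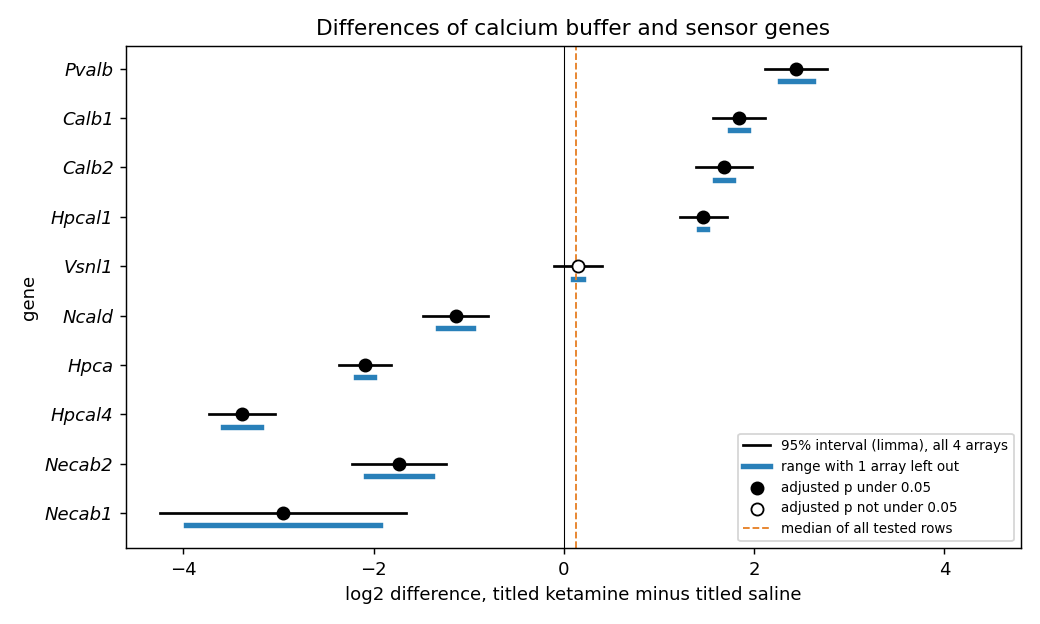
Log2 difference between the titled ketamine arrays and those titled saline (x axis) for the 10 genes (y axis). Points are differences of group means, filled where the adjusted p from limma was under 0.05, black lines are 95% intervals, blue lines span the values with 1 array left out, and the dashed line is the median of all tested rows at 0.13. Vsnl1 lies on that line, and Necab1 has the widest interval, from -4.25 to -1.66.

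The neuronal calcium sensors went both ways, although they are close relatives. Hpca, Hpcal1, Ncald, Hpcal4 and Vsnl1 all belong to the visinin-like branch of the family. Hpcal4, also known as visinin-like protein 2 and abundant in forebrain neurons, read 6.05 and 6.46 on the titled ketamine arrays and 9.62 and 9.65 on the titled saline arrays. The difference of -3.38 (95% interval -3.73 to -3.03, adjusted p = 2.7e-05 from limma), a ratio of 0.0960, was the largest fall of the 10 genes, and 42 of the 21789 rows differed by as much or more in either direction. Hpca encodes hippocalcin, best known from hippocampal and cortical pyramidal neurons, where it takes part in the slow afterhyperpolarisation. It read 8.77 and 8.95 on the titled ketamine arrays and 10.93 and 10.97 on those titled saline, a difference of -2.09 (95% interval -2.36 to -1.82, adjusted p = 4.8e-05 from limma). Ncald, the gene of neurocalcin delta, had the smallest of the called differences. It read 7.75 and 8.12 on the titled ketamine arrays and 9.03 and 9.12 on the titled saline arrays, a difference of -1.14 (95% interval -1.48 to -0.80, adjusted p = 0.0014 from limma).

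Hpcal1, visinin-like protein 3, is strongly expressed in Purkinje cells and was the sensor that was higher. It read 9.85 and 9.76 on the titled ketamine arrays and 8.34 and 8.34 on those titled saline. The difference was 1.47 (95% interval 1.22 to 1.71, adjusted p = 0.00013 from limma), a ratio of 2.76. A further 2 rows of the array name Hpcal1 together with other genes and were not counted here. Vsnl1, visinin-like protein 1, is found in many kinds of neurons in forebrain and cerebellum. It read 11.83 and 11.86 on the titled ketamine arrays and 11.75 and 11.65 on the titled saline arrays. The groups lay 0.08 apart at their nearest values, and the difference was 0.15 (95% interval -0.10 to 0.40, adjusted p = 0.324 from limma), or 0.02 relative to the median of all rows. A ratio from 0.930 to 1.32 is thus within the interval for Vsnl1. The part of the projection neuron and Purkinje cell markers in the differences of the 5 sensors was not tested.

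The promoter windows of Hpcal1 and Hpcal4 are shown because these near relatives differed in opposite directions, and those of both listed starts of Pvalb because it was the gene with the largest rise. Each run holds the 150 bases before a RefSeq start site, on the gene's strand in build GRCm38.p6. Capitals mark matches on either strand to GGGCGG, the core of a GC box, and to CANNTG, an E-box, and these matches do not overlap.
Hpcal1, chr12:17690659-17690808, plus strand: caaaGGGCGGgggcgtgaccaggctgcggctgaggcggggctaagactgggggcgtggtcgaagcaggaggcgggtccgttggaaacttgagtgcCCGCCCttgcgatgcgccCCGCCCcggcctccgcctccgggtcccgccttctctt
Hpcal4, chr4:123183354-123183503, plus strand: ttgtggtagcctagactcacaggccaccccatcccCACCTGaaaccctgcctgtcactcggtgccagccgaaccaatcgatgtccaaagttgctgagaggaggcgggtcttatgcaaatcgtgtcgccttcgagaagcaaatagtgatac
Pvalb, start 1, chr15:78206401-78206550, minus strand: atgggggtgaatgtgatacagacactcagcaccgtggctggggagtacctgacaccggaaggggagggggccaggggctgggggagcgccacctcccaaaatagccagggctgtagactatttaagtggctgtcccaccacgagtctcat
Pvalb, start 2, chr15:78204238-78204387, minus strand: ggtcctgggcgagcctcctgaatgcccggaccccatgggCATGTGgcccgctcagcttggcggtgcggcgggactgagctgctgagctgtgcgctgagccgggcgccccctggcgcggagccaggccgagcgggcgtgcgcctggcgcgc
The window of Hpcal1 held 3 matches to GGGCGG and 0 to CANNTG, and that of Hpcal4 held 0 and 1. For Pvalb the window of start 1 held neither, and that of start 2 held 1 match to CANNTG and 0 to GGGCGG. Among 32851 such windows of the same length, 28.6% held GGGCGG and 47.7% held CANNTG. The G and C content was 72.0% in Hpcal1, 54.7% in Hpcal4 and 60.0% and 76.7% in the windows of Pvalb starts 1 and 2, against a median of 54.0% over all windows. Windows were listed for 6 of the 10 genes. A match describes letters in the window only, and the arrays do not show which start site was used.

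Both NECAB genes were lower on the titled ketamine arrays, and they differed most between the 2 arrays of that group. NECAB proteins hold an EF-hand region at one end and an oxygenase-like domain at the other. Necab1 read 5.53 on titled ketamine array 1 and 7.57 on array 2, against 9.48 and 9.53 on the titled saline arrays. The difference was -2.95 (95% interval -4.25 to -1.66, adjusted p = 0.0069 from limma). Without titled ketamine array 1 the difference of Necab1 was -1.93 and without array 2 it was -3.97, so its size depends on the array that is kept while both lie under the titled saline arrays. Without either titled saline array the adjusted p of Necab1 was 0.0816 or 0.0870, and it no longer passed. The gap of 2.04 between the 2 titled ketamine arrays was reached by 3 of the 21789 rows, Necab1 included. Necab2, whose protein binds an adenosine receptor and a metabotropic glutamate receptor, read 5.60 and 6.29 on the titled ketamine arrays and 7.68 and 7.68 on the titled saline arrays. Its difference was -1.73 (95% interval -2.23 to -1.24, adjusted p = 0.0012 from limma), and its gap of 0.69 within the group titled ketamine was reached by 0.721% of the rows.

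The 5 genes that were lower all read higher on titled ketamine array 2 than on array 1, by 0.19 for Hpca, 0.37 for Ncald, 0.40 for Hpcal4 and the larger gaps of the NECAB genes. Between the titled saline arrays the same 5 genes differed by 0.09 at most. Of the 2110 other rows called lower, 63.6% also read higher on titled ketamine array 2, with a median gap of 0.07. The 95th percentile of the size of that gap over all rows was 0.40. The 4 genes that were higher differed by 0.03 to 0.18 between the titled ketamine arrays. Over all rows 49.0% read higher on titled ketamine array 2. Of the marker lists, 7 of 9 cortical interneuron, 5 of 10 cortical projection neuron, 4 of 7 striatal, 4 of 5 astrocyte, 4 of 4 oligodendrocyte and 4 of 4 microglial markers did, against 1 of 10 granule cell and 0 of 8 Purkinje cell markers. Of the 3 genes that all GABAergic neurons use, 0 did, with a median gap of -0.08. The median gap was largest for the oligodendrocyte markers, at 0.36, followed by the cortical interneuron markers at 0.24 and the microglial markers at 0.17, and it was -0.20 for the Purkinje cell markers. The part of these cell types in the gaps was not tested.

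**Figure D3:**
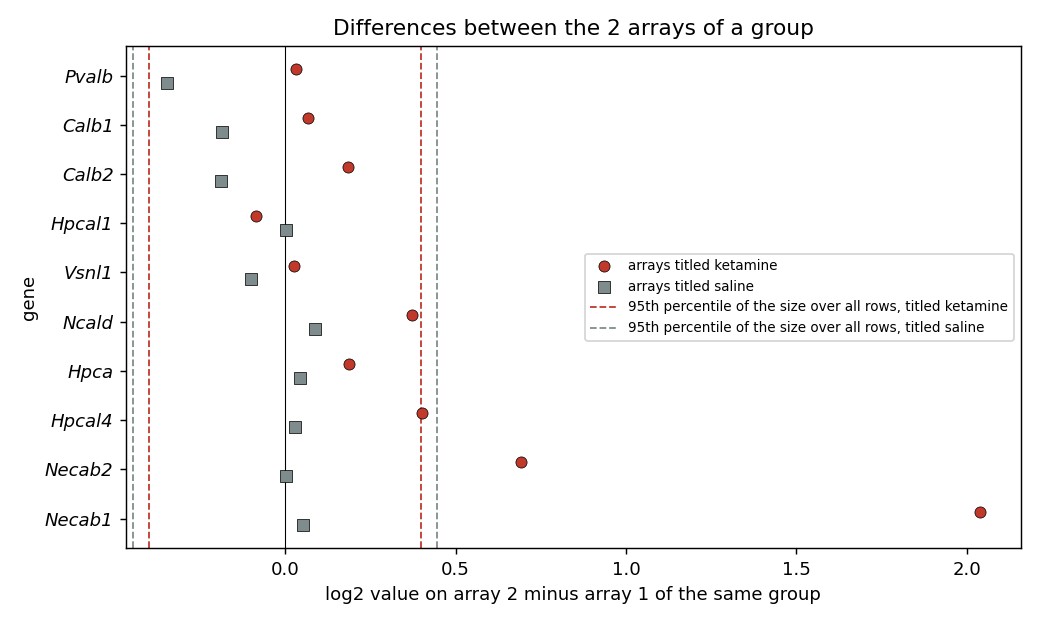
Log2 value on array 2 minus that on array 1 of the same group (x axis) for the 10 genes (y axis), as circles for the titled ketamine arrays and squares for those titled saline. Dashed lines mark the 95th percentile of the size of the gap over all tested rows, 0.40 for the titled ketamine arrays and 0.45 for those titled saline. Necab1 at 2.04 and Necab2 at 0.69 lie beyond it and Hpcal4 at 0.40 just past it, while Pvalb, Calb1 and Calb2 lie below 0 for the titled saline arrays.

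Leaving out 1 array changed the calls but no direction among the 10 genes. When either titled ketamine array was left out, limma called 0 of the 10 genes and 0 rows of the whole table. At an unadjusted p under 0.05 it then still had 9 of the 10 genes in each case, with 5974 and 6461 rows in all. Without either titled saline array 8 genes were called, Necab1 being the gene that was lost. The log2 difference of Pvalb ranged from 2.27 to 2.62 with 1 array left out, that of Hpcal4 from -3.58 to -3.18 and that of Vsnl1 from 0.10 to 0.20. With 1 array left in a group, the model assumes that it varies as the arrays of the other group do, so a lost call does not show that a difference is absent.

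Other calcium-handling genes, on 5 lists with 40 measured members, were higher for 9, lower for 14 and did not pass for 17, beside 23.4% higher and 9.71% lower over all rows. The median difference was 0.02 over these 40 genes, against 0.13 over all rows. Of 7 other neuronal calcium sensors, 2 were higher and 4 lower. Kcnip2, a subunit that modulates Kv4 potassium channels, read 5.02 and 5.02 on the titled ketamine arrays and 8.35 and 8.26 on those titled saline, a difference of -3.29 (adjusted p = 1.7e-05 from limma). Its relatives Kcnip1 and Kcnip4 were higher by 0.90 and 0.93, and Ncs1, a sensor found in most neurons, had a difference of -0.62. The remaining lower genes of this list, Rcvrn and Guca1a, known from the retina, were at or under the olfactory receptor level on all 4 arrays.

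Of 10 measured genes of calmodulin and its close relatives, 3 were higher, 0 lower and 7 did not pass, with a median difference of 0.11, and 3 of 10 is near the share called over all rows. The 3 were Caln1, a calmodulin-like protein of brain, at 1.02, Calml4 at 0.78 and Cabp2 at 0.51. After quantile normalization Cabp2 no longer passed (0.30, adjusted p = 0.0775 from limma). Of 10 other EF-hand buffers and S100 proteins, 2 were higher and 3 lower, with a median of -0.02. S100b, a calcium-binding protein of astrocytes, read 10.34 and 10.45 on the titled ketamine arrays and 8.99 and 9.02 on the titled saline arrays, a difference of 1.40 (adjusted p = 0.00017 from limma). The astrocyte markers Aqp4 and Slc1a2 had differences of 1.26 and -0.64, and the 5 markers together had summed levels of 12.09 to 12.18 on the titled ketamine arrays and 12.06 to 12.09 on those titled saline. Their part in the difference of S100b was not tested. Necab3, the remaining NECAB gene, was lower, with a difference of -1.10, and it too read higher on titled ketamine array 2, at 6.79, than on array 1, at 6.10. Ocm and Scgn, which encode the buffers oncomodulin and secretagogin, had differences of -0.85 and -0.78. Ocm was at or under the olfactory receptor level on the titled ketamine arrays, so its size is not resolved. Scgn was at or under that level on all 4 arrays, so its expression is not shown in either group.

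Of 4 neuronal proteins that bind calmodulin, 2 were lower and 2 did not pass. Nrgn, the gene of neurogranin in forebrain dendrites, read 5.68 and 5.15 on the titled ketamine arrays, against 10.08 and 10.03 on the titled saline arrays, a difference of -4.64 (adjusted p = 2.0e-05 from limma). Pcp4l1 was lower, with a difference of -0.84, which was -0.51 without titled ketamine array 1. Gap43, a growth cone protein, had a difference of -0.33 (adjusted p = 0.0507) and Pcp4, a Purkinje cell protein also found in cortex, one of 0.27 (adjusted p = 0.0931), both from limma. Of 9 calcium pumps and exchangers, 2 were higher and 5 lower, with a median of -0.52. Slc24a4, a potassium-dependent sodium-calcium exchanger, read 5.80 and 5.80 on the titled ketamine arrays and 7.96 and 7.80 on those titled saline, a difference of -2.08 (adjusted p = 4.6e-05 from limma). Atp2b1, a plasma membrane calcium pump, and Slc8a2, a sodium-calcium exchanger, had differences of -1.02 and -0.82. The pump gene Atp2b3 was higher by 0.68. When either titled saline array was left out, Ncs1, Calml4, Cabp2, Necab3 and Pcp4l1 no longer passed, nor did Slc8a2 without titled saline array 2.

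**Figure D4:**
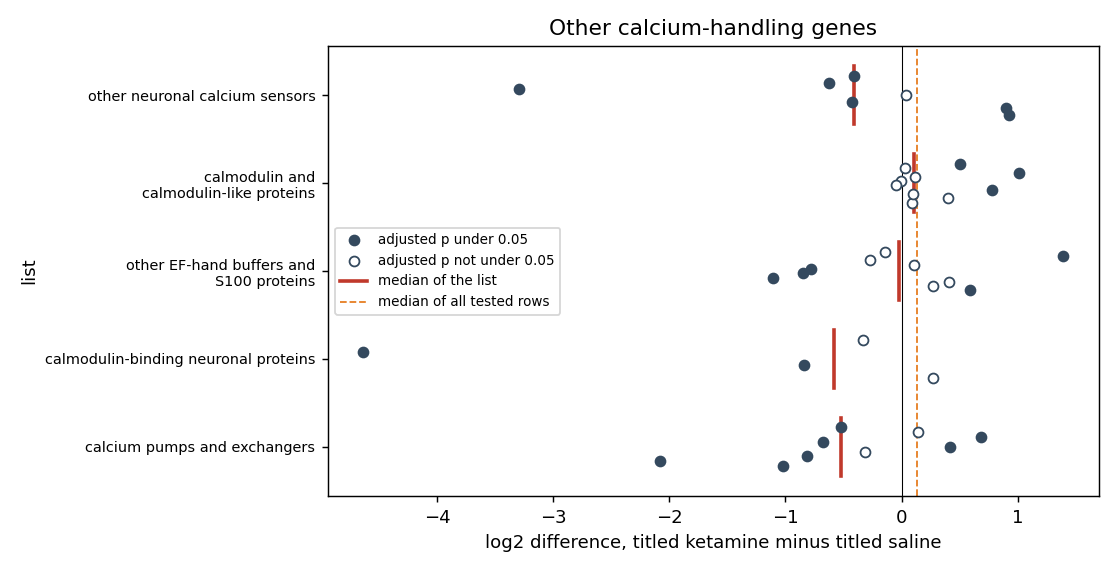
Difference in log2 value, titled ketamine arrays minus titled saline arrays (x axis), for 40 other calcium-handling genes on 5 lists (y axis). Filled points passed at an adjusted p under 0.05 (limma), open points did not, red bars are list medians and the dashed line is the median of all tested rows. Nrgn at -4.64, Kcnip2 at -3.29 and Slc24a4 at -2.08 lie farthest to the left, and S100b at 1.40 farthest to the right.

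The genes whose profile over the 4 arrays lay nearest to that of Pvalb were Tmem266, Trim62 and Gprc5c. Likeness was measured as the root mean square distance between log2 values after each row was centred on its mean, and these distances were 0.07, 0.08 and 0.10. For Hpcal4 the nearest were Grin2b, an NMDA receptor subunit, Pmch, the precursor of melanin-concentrating hormone, and Lrrc7, a postsynaptic scaffold protein, at 0.04, 0.09 and 0.11. Pmch was at or under the olfactory receptor level on both titled ketamine arrays. The group difference itself was 2.33 for Tmem266, beside 2.44 for Pvalb, and -3.34 for Grin2b, beside -3.38 for Hpcal4.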

How the data were processed

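Total RNA from mouse brain was measured on 4 one-colour Affymetrix arrays. The deposited values are log2 signals from RMA, run by the authors with Expression Console (background correction, normalization between arrays, 1 value per transcript cluster). Version and genome build: not given in the sources used here. RMA partly removes a shift of most genes in one direction. Gene names come from the platform annotation: 21789 of 35556 rows had 1 symbol, 1621 several and 12146 none. All 10 members matched by gene number a RefSeq table of GRCm38.p6, and the promoter windows are RefSeq's for that build. Differences were tested over the rows with 1 symbol with lmFit and eBayes of limma 3.58.1 (R 4.3.3) and Benjamini-Hochberg adjustment over all of them. No filter was applied, and the fit was tested on simulated data. Array medians were 5.90 to 6.04, and the number of arrays limits the precision. The members and lists were chosen with earlier results of these data known. Named are all members, up to 4 called genes of each pathway list by size of difference, every gene of a list with 5 or fewer measured, up to 3 of each marker list and the 3 nearest profiles of the members with the largest rise and fall. Rcvrn, Guca1a and Htr3a were named after their values were seen. A gene with several rows was represented by the row with the highest mean. No sample column was left unused. Alternatives covered a filter, normalization, moderation, the rows tested, a block for the replicate number, and leaving out each array.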

Additional observations from a re-analysis of the deposited data

How the results depend on the processing

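No member turned direction in any setting. Vsnl1, which did not pass with all arrays, passed in none of them, and its values are counted among the 70 and the 40 below. The 70 values under a filter, another normalization, another moderation, all rows of the table or the replicate block kept their side of the threshold, and a call by 1.3-fold alone gave 9 members (4 higher, 5 lower; 34.1% of all rows). Necab1 came near the threshold, with an adjusted p from limma of 0.0417 with the robust option and 0.0460 over all rows of the table. With 1 array left out, 20 of 40 no longer passed: called members ranged from 0 to 8 (higher 0 to 4, lower 0 to 4), genes of the pathway lists from 0 to 15 (higher 0 to 7, lower 0 to 8) and tissue markers from 0 to 45 (higher 0 to 19, lower 0 to 26), against 9, 23 and 49 with all arrays. The counts of 0 came from limma without titled ketamine array 1 or without array 2, where 9 members still had an unadjusted p under 0.05. Over all rows 4574 were called without titled saline array 1 and 4089 without array 2, against 7224 in all. Over all rows of the table the pathway genes that were lower numbered 9, against 14, with Ncs1 and Pcp4l1 among those that no longer passed. Gap43 passed under a filter on dim rows, both rescalings, a trend in the moderation and the mean of rows, and Pcp4 under the filter and the trend. Gabra6 did not pass with the robust option (adjusted p = 0.0780 from limma). Mbp, at 0.05, was -0.0343 after quantile normalization and -0.0852 after centring, and ranged from -0.16 to 0.27 with 1 array left out, where Mobp, at 0.14, ranged from -4e-05 to 0.28. With the replicate block 9 members were called and 8250 rows in all. The deviations of same-numbered arrays correlated at 0.03 across rows, a value that cannot show whether these arrays share more than a number. The lowest reading of the 10 members, that of Necab1, lay 0.97 above the olfactory receptor level of its array. Some other named genes read at or under that level. Whether low signal limits the size of the differences of Necab1 and Necab2 was not tested.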

Other observations

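Calb1 and Necab1 are near neighbours on chromosome 4, with 1 protein-coding gene, Tmem64, between them in the RefSeq table, and they differed in opposite directions (1.84 and -2.95). Tmem64 itself read 8.84 and 8.82 on the titled ketamine arrays and 8.80 and 8.71 on the titled saline arrays, a difference of 0.07 (adjusted p = 0.620 from limma). The other members that share a chromosome lie at least 19 protein-coding genes apart: Hpcal1 and Vsnl1 on chromosome 12 with 19 between them, Calb2 and Necab2 on chromosome 8 with 62, Hpca and Hpcal4 on chromosome 4 with 78, and Pvalb and Ncald on chromosome 15 with 241. All 3 buffers were higher, so a buffer and a gene that was lower differ in direction wherever they lie. Such pairs on chromosomes 8 and 15 were at 1.69 and -1.73 and at 2.44 and -1.14. Calb1 also forms such pairs with Hpca and Hpcal4 on chromosome 4, with 786 and 707 genes between them. Hpca and Hpcal4 were both lower. These positions were looked at after the values were known, and no relation between position and expression was tested.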
